A study of Homo sapiens with 4 samples.

Results

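The interferon-induced antiviral effector genes are 56 human genes, most of whose products act inside the cell, or at its surface, to restrict viruses. They were described here in RNAseq of T24 cells, an established human bladder carcinoma line, with 2 EV and 2 TET1-CD libraries. The genes were matched by symbol, and each of the 56 symbols was found among the 57879 genes of the deposited tables. The set was chosen on the TET1-CD over EV fold changes of these same libraries, so that the direction and size of its change are a description, not a test. Fold changes and calls below support nothing on their own for that reason.

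EV cells carried the empty lentiviral vector and are labelled control. TET1-CD cells carried the catalytic domain of TET1, FLAG-tagged, in the same vector, and were kept as a puromycin-selected stable population. TET1 is a dioxygenase that oxidizes 5-methylcytosine in DNA. Both groups grew in RPMI with 10% FCS, and all 4 libraries carry the source name T24_induced, whose meaning the labels do not give. No interferon, virus or other stimulus is named for either group. A catalytically inactive TET1-CD was not analysed here, and the labels do not say whether the replicates were separate cultures or separate transductions.

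Interferons are secreted proteins that cells release upon sensing viral nucleic acid. They bind receptors on the cell surface, JAK kinases become active, and a complex of transcription factors that holds STAT2 and IRF9, called ISGF3, binds a DNA motif called the interferon-stimulated response element (ISRE) in front of its targets. The products of those targets bind foreign RNA, degrade it, block entry or budding of virions, and modify proteins with the ubiquitin-like protein ISG15. Many tumor lines express these genes at a steady level without added interferon.

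Library totals were 17442143 to 20295266 estimated fragments. The targeted gene moved as labelled, with TET1 at 111 and 83 counts in EV against 2939 and 3310 in TET1-CD. Of the T24 and epithelial markers, KRT7, KRT8, KRT18, VIM and CD44 were abundant in all libraries, and CDH1, an epithelial cadherin, had at most 2 counts. These markers were not level between groups. By edgeR, KRT7 (0.34 on the log2 scale), KRT18 (0.18) and KRT19 (1.005) were higher in TET1-CD. VIM (-0.39) and CD44 (-0.19) were lower, so that 5 of the 10 tested were called. Of all genes tested, 9.61% were lower and 10.0% higher at an adjusted p under 0.05. KRT19 was low (5.09 and 3.81 CPM in EV, 9.40 and 8.62 in TET1-CD), as was EPCAM (2.72 and 2.66 against 3.42 and 4.39), which was not called. The part of the T24 and epithelial markers in the results was not tested. Of 16 leukocyte markers, 11 had at most 10 counts in every library, PTPRC and CD3E among them. HLA-DRA and TYROBP were at 0 throughout. The others were CD68 (24.4 and 33.3 CPM in EV, 23.4 and 23.0 in TET1-CD), CD8A (1.68 and 1.73 against 1.94 and 1.68), CD14 (0.642 and 0.867 against 0.456 and 0.612), ITGAM (1.09 and 1.68 against 0.171 and 0.408) and CD74 (4.35 and 5.60 against 18.6 and 18.5). Of the 5 tested, edgeR called CD74 higher (1.91 on the log2 scale) and ITGAM lower (-2.19) in TET1-CD. The summed level of the leukocyte markers was 32.8 and 43.9 CPM in EV and 45.2 and 44.6 in TET1-CD. That sum mixes changes in opposite directions, and the part of these markers in the results was not tested. CPM is a gene's count scaled to library size and the TMM factor, and allows comparison of 1 gene across libraries. FPKM, which is also divided by transcript length, was used for levels of different genes.

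Most effector genes were lower in the TET1-CD libraries, while the guanylate-binding proteins, MX1, PARP12, BST2 and USP18 were among those not called. The members took 0.718% and 0.867% of all EV fragments, and 0.596% and 0.606% of those from TET1-CD cells. In bulk RNA, fewer cells expressing a gene and less RNA per cell cannot be told apart. Of the 55 members with enough counts, 41 were lower at an adjusted p under 0.05 (edgeR's quasi-likelihood test, Benjamini-Hochberg over all 14573 genes tested), none was higher and 14 were not called. Across all genes tested, 9.61% were lower and 10.0% higher by edgeR at that adjusted p. DESeq2 called 36 members lower and none higher, beside 5.85% and 6.09% of all genes. At an unadjusted p under 0.05, 43 members were lower and 1, GBP1, was higher. The share of all genes at that unadjusted p was not worked out. The median log2 fold change of the members was -0.41, with a range from -1.12 to 0.27, against 0.00 for all genes. Only 3 members, IFITM2, IFI44L and IFI6, were lower by at least 2-fold, a size reached by 1.04% of all genes in that direction and by 2.72% in the other, where no member stood. The change was therefore modest for most members, and 15 of the 41 were lower by at least 1.5-fold. Both TET1-CD libraries lay below both EV libraries in 43 of 55 members and above them in none, and in 12 members the groups overlapped. This separation held for 30.2% of all genes downward and 30.8% upward.

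**Figure D1:**
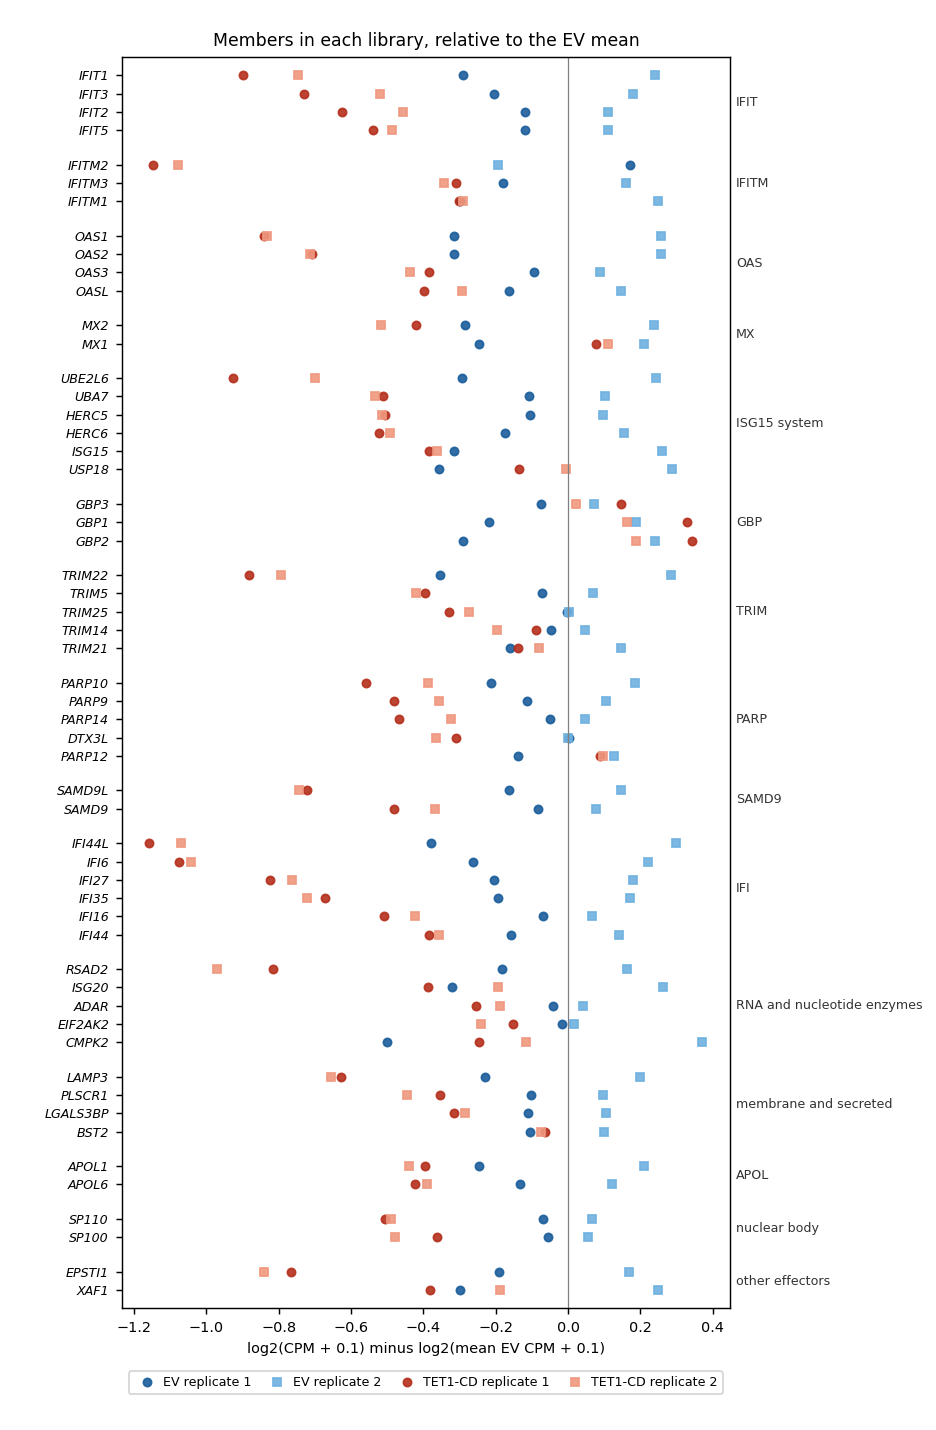
Level of each of the 55 tested members in each library, as log2(CPM + 0.1) minus the log2 of the EV mean (x axis), grouped by family. Circles are replicates 1 and squares replicates 2, EV in blue and TET1-CD in red; EV replicate 2 lies to the right of EV replicate 1 for 53 members, and both TET1-CD points lie to the left of both EV points for 43.

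The EV libraries did not match each other in these genes. EV replicate 2 was above EV replicate 1 in 53 of 55 members, and the median log2 ratio was 0.31, against 0.00 for all genes. The exceptions were IFITM2 (-0.37) and DTX3L, whose libraries were level. Between the TET1-CD libraries the median ratio was 0.03. In 16 of the 55 members the gap between the EV libraries exceeded the difference between the groups. The same held for 5972 of the 14573 genes tested. The 16 members were 13 of the 14 members not called and 3 of the 41 called, which were IFITM3, MX2 and APOL1.

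Leaving out a library moved the counts accordingly. Without EV replicate 1, 50 members were lower, 7 of them by 2-fold (IFI44L, IFI6, RSAD2, TRIM22, OAS1, UBE2L6 and IFIT1), beside 12.7% of all genes, and the median was -0.55. Without EV replicate 2, 38 were lower, IFITM2 alone by 2-fold, 5 were higher (GBP1, GBP2, MX1, PARP12 and USP18) and the median was -0.32, with 12.5% of all genes lower and 12.4% higher. Without TET1-CD replicate 1, 19 were lower, beside 2.63% of all genes, and without TET1-CD replicate 2, 23 were lower, beside 3.30%. In those fits the lone library of a group was assumed to vary like the other group. IFIT1, IFIT2, IFIT5, IFITM2, OAS1, HERC5, SAMD9L, IFI6, IFI16, IFI27, IFI35, IFI44L, SP110 and EPSTI1 were lower in all 4 such fits. The share of all genes lower in all 4 fits was not worked out, so that these names have no reference beside them. What set the EV libraries apart in the members was not tested.

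**Figure D2:**
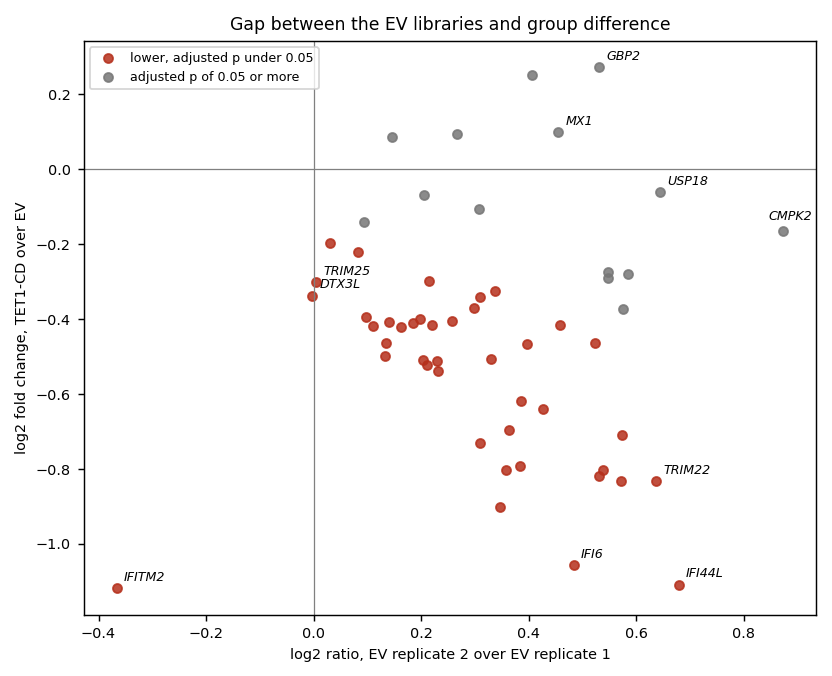
Gap between the EV libraries (x axis, log2 of replicate 2 over replicate 1) and log2 fold change of TET1-CD over EV (y axis) for the 55 tested members, in red where the adjusted p was under 0.05. Nearly all points lie to the right of 0; IFITM2 is the exception at the far left, and CMPK2 has the widest gap.

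The promoters of most members with an entry hold the ISRE core. A window of 300 bases, from 250 before to 50 after the start of transcription, was found for 43 of the 56 members in the RefSeq promoter table (GRCh38.p14), and 13 had no entry. The core GAAANNGAAA, searched on both strands with overlapping matches counted, was in a window of 31 of the 43 members (72.1%) and of 4.38% of the 27305 genes in the table. The GAS core TTCNNNGAA, a motif of the response to interferon gamma, was in 11 members (25.6%) and in 9.38% of all genes. Among the members, 20 of the 30 lower ones with a window (66.7%) and 10 of the 12 not called (83.3%) held the ISRE core. It was thus present in most members of either kind. IFITM2, the most reduced member, had no entry. In the windows of 50 bases below, the ISRE core is in capitals, with its first base counted from the start of transcription. The windows are from members with an entry and run from reduced to unreduced ones. Each is read 5′ to 3′ on the strand of the gene, on GRCh38.p14.
IFI44L (chr1:78620355-78620404, plus strand, core from base -73): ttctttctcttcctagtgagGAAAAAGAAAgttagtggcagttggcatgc
IFI6 (chr1:27672256-27672305, minus strand, core from base -93): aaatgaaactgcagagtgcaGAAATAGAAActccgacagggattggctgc
RSAD2 (chr2:6877612-6877661, plus strand, core from base -145): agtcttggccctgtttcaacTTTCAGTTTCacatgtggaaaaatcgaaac
IFIT1 (chr10:89392487-89392536, plus strand, core from base -116): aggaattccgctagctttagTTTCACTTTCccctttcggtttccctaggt
IFI27 (chr14:94110621-94110670, plus strand, core from base -95): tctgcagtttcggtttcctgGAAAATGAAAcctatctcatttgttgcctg
OAS3 (chr12:112938311-112938360, plus strand, core from base -143): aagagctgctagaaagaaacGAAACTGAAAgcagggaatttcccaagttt
ISG15 (chr1:1013370-1013419, plus strand, core from base -107): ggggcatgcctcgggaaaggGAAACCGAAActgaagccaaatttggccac
IFITM3 (chr11:320866-320915, minus strand, core from base -35): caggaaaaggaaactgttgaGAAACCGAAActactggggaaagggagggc
BST2 (chr19:17405725-17405774, minus strand, core from base -124): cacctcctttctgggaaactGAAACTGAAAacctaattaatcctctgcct
MX1 (chr21:41431834-41431883, plus strand, core from base -196): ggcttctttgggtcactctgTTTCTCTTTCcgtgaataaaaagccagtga
GBP1 (chr1:89065306-89065355, minus strand, core from base -127): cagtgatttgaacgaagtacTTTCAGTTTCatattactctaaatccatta

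The first 8 of these genes had log2 fold changes from -1.11 to -0.33 (ISG15, at -0.37, was not called), whereas BST2, MX1 and GBP1 had -0.07, 0.10 and 0.25. In IFIT1, RSAD2, MX1 and GBP1 the core is written as its reverse complement, since it lies on the opposite strand. In IFI44L the same 50 bases occur a second time, with the core from base -164. Promoters of the members also held fewer CpG than those of all genes, the dinucleotide at which DNA is methylated. The median was 8.5 CpG per window in the members and 14 in all genes. A motif match is a description of these letters and not a measured binding site.

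**Figure D3:**
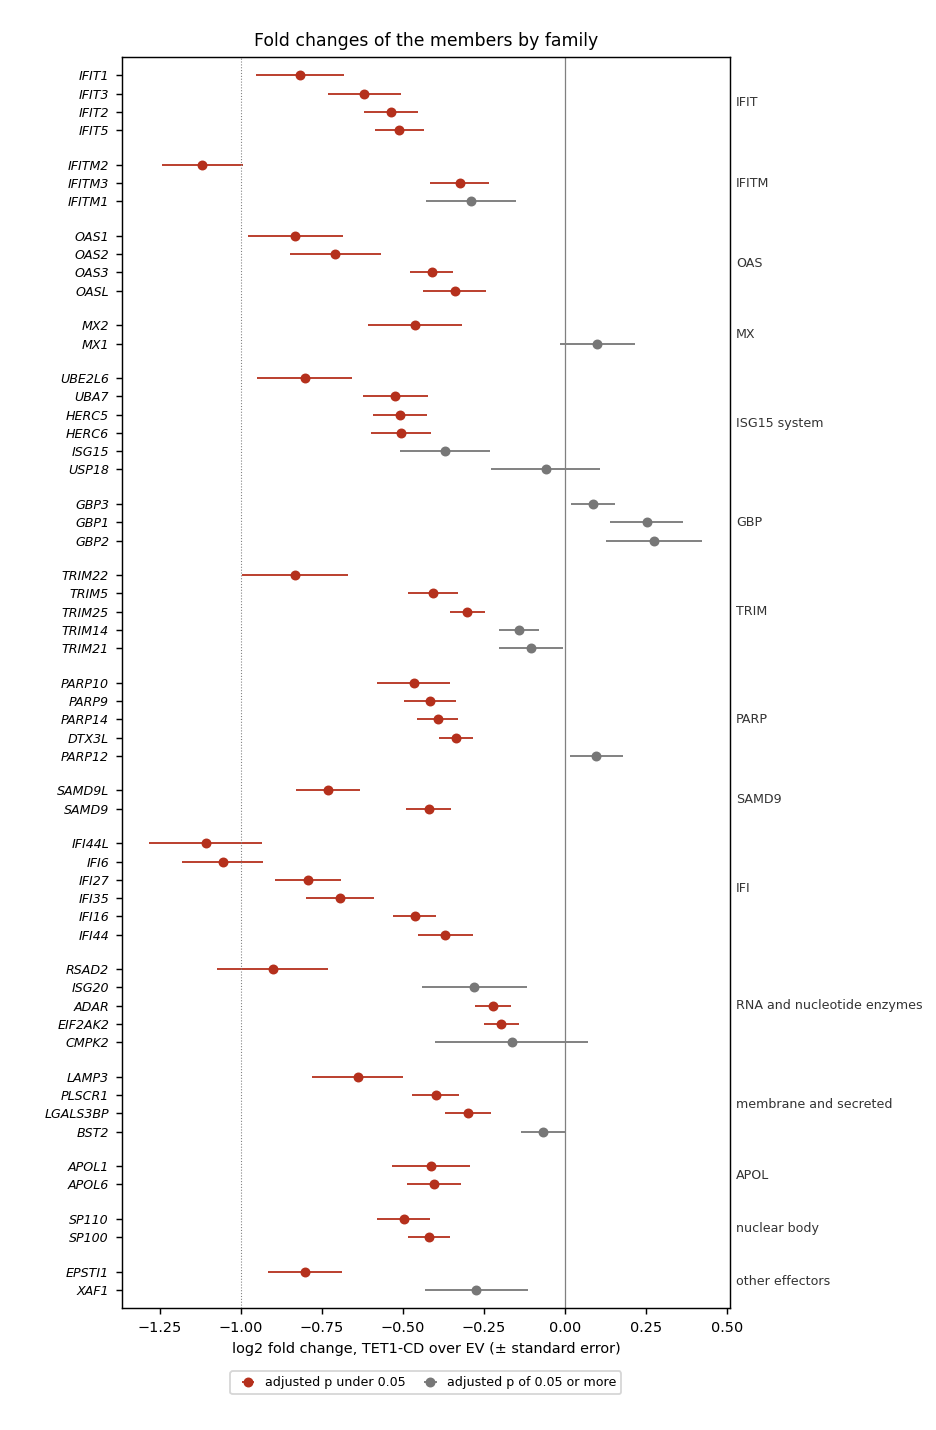
Log2 fold change of TET1-CD over EV with its standard error (x axis) for each tested member, grouped by family, with 2 libraries per group. Red points had an adjusted p under 0.05; the dotted line marks a 2-fold decrease, which IFITM2, IFI44L and IFI6 passed, and the 3 GBP genes lie to the right of 0.

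The IFIT proteins bind the ends of foreign RNA and block its translation, and their genes form a row on chromosome 10. All 4 were lower by edgeR, beside 9.61% of all genes, and by DESeq2, beside 5.85%. IFIT1, which binds RNA lacking the methylated cap of the host, had 247 and 357 CPM in EV and 162 and 180.02 in TET1-CD, a log2 fold change of -0.82 (SE 0.14). IFIT3, its partner in a complex, had 215 and 280.2 CPM in EV and 149 and 173 in TET1-CD, with -0.62 (SE 0.11) on the log2 scale. In neither gene did the groups overlap. IFIT2 had 174 and 204 CPM against 123 and 138, a log2 fold change of -0.54 (SE 0.08). For IFIT5 the values were 126 and 148 CPM in EV and 94.5 and 97.9 in TET1-CD, or -0.51 (SE 0.08). The 4 IFIT genes lie within 119 kb on GRCh37 (chromosome 10 from 91061712 to 91069033 for IFIT2, and to 91180758 for IFIT5). LIPA, a lysosomal lipase gene that lies among them, had a log2 fold change of -0.05 and was not called, and FAS, next to the row, was lower (-0.81).

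The OAS enzymes sense double-stranded RNA and make oligoadenylates, which switch on the nuclease RNase L. All 4 members were lower by edgeR, beside 9.61% of all genes. DESeq2 called 3, beside 5.85%, and did not call OAS2 (adjusted p = 0.0823). The groups overlapped in none, a separation that held downward for 30.2% of all genes. OAS1 had 60.7 and 90.3 CPM in EV and 42.2 and 42.4 in TET1-CD, a log2 fold change of -0.83 (SE 0.15). OAS2 had 213 and 317 CPM against 163 and 162, or -0.71 (SE 0.14). In both, EV replicate 2 stood well above EV replicate 1, by 0.57 on the log2 scale. OAS3, the longest enzyme of the family and the most abundant here at 89.6 FPKM in EV, had 521 and 591 CPM against 426 and 411 and a log2 fold change of -0.41 (SE 0.07). OASL, which lacks the synthase activity, had 49.8 and 61.6 CPM against 42.3 and 45.4, or -0.34 (SE 0.10). The isoforms of OAS1 kept their proportions. The transcript coding for 364 residues held 40.1% and 46.01% of its EV counts and 47.2% and 42.8% of its TET1-CD counts, and the one for 400 residues 32.4% and 25.3% against 25.8% and 27.04%.

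IFI6, IFI27, IFI35, IFI44, IFI44L and IFI16 are named for their induction by interferon and are not all related by sequence. All 6 were lower by edgeR, beside 9.61% of all genes, and by DESeq2, beside 5.85%. None overlapped between groups, a separation that held downward for 30.2% of all genes. IFI27, a small hydrophobic protein, was the most abundant of all members at 909.6 FPKM in EV. It had 419 and 546 CPM in EV and 273 and 284 in TET1-CD, a log2 fold change of -0.79 (SE 0.10). IFI6, a related protein, had 155 and 216 CPM against 88.03 and 90.2, or -1.06 (SE 0.12). IFI44L and IFI44 are neighbours on chromosome 1 with unequal fold changes. IFI44L had 56.6 and 90.6 CPM against 32.9 and 34.98, a log2 fold change of -1.11 (SE 0.17). IFI44 had 171 and 210.4 CPM against 146 and 149, or -0.37 (SE 0.09). IFI16 is a nuclear sensor of DNA. It had 98.8 and 108 CPM against 72.8 and 77.3, or -0.46 (SE 0.07), and its EV libraries were close to each other. IFI35 had 58.2 and 74.9 CPM against 41.7 and 40.3, a log2 fold change of -0.69 (SE 0.10).

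The IFITM proteins sit in the plasma and endosomal membranes and hinder the fusion of enveloped viruses. Their genes lie within 19.9 kb on chromosome 11 and their sequences are much alike, so that reads can be assigned to the wrong member. In the deposited annotation the span of IFITM2 also reaches over IFITM1. IFITM2 had 36.4 and 28.2 CPM in EV and 14.5 and 15.2 in TET1-CD, with the largest fold change of the set, -1.12 (SE 0.12) on the log2 scale. It was also the only member in which EV replicate 1 stood well above EV replicate 2. IFITM3, the most abundant of the family at 502 FPKM, had 360.1 and 455 CPM against 329 and 321, or -0.33 (SE 0.09). IFITM1 had 44.7 and 65.3 CPM against 44.6 and 44.9 and was not called, with -0.29 (SE 0.14) on the log2 scale. Its TET1-CD libraries matched EV replicate 1. With the counts of the 3 genes summed, which is insensitive to the assignment of reads among them, the log2 fold change was -0.36. IFITM3 held most of that sum, with 7289 of 8929 counts in EV replicate 1. The sum therefore cannot show whether reads were assigned wrongly for IFITM2.

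IFITM1 was chosen for a closer look after its values were seen, because the makeup of its transcripts changed. Transcript ENST00000408968 held 99.2% and 99.96% of the gene's EV counts, but 64.5% and 61.6% of its TET1-CD counts. The rest belonged to ENST00000328221, with 6.78 and 0.465 estimated EV counts and 278 and 338 for TET1-CD, or 0.75% and 0.04% against 35.5% and 38.4%. Both code for the same number of residues, 125, and differ mainly at their 5′ end. On GRCh37, the first exon of ENST00000328221 spans chromosome 11 from 313527 to 313691, and its start lies 513 bp upstream of that of ENST00000408968. Counts of the downstream transcript fell from 897 and 1130 to 505 and 543 estimated fragments, while those of the gene as a whole differed less. Such shifts were not rare in these libraries. Of the 27912 transcripts of tested genes that held at least 10% of their gene's counts in a group, 2.26% differed by at least 30 percentage points with no overlap between groups, and among the members 2 of 87 did, both from IFITM1. The share is that of all genes. In the other members no share differed by more than 12.9 points. The 250 bases before each start, on GRCh37 and the plus strand, held 3 CpG upstream of ENST00000328221 and none upstream of ENST00000408968. The ISRE core was present once before the downstream start and absent before the upstream start. The sequence before the upstream start is shown with its CpG in capitals.
ENST00000328221 (chr11:313277-313526, GRCh37, plus strand): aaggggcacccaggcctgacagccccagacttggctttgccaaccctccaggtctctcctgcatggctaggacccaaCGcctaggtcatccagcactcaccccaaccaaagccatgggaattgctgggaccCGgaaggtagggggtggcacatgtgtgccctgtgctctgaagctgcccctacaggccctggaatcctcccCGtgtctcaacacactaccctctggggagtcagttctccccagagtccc

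**Figure D4:**
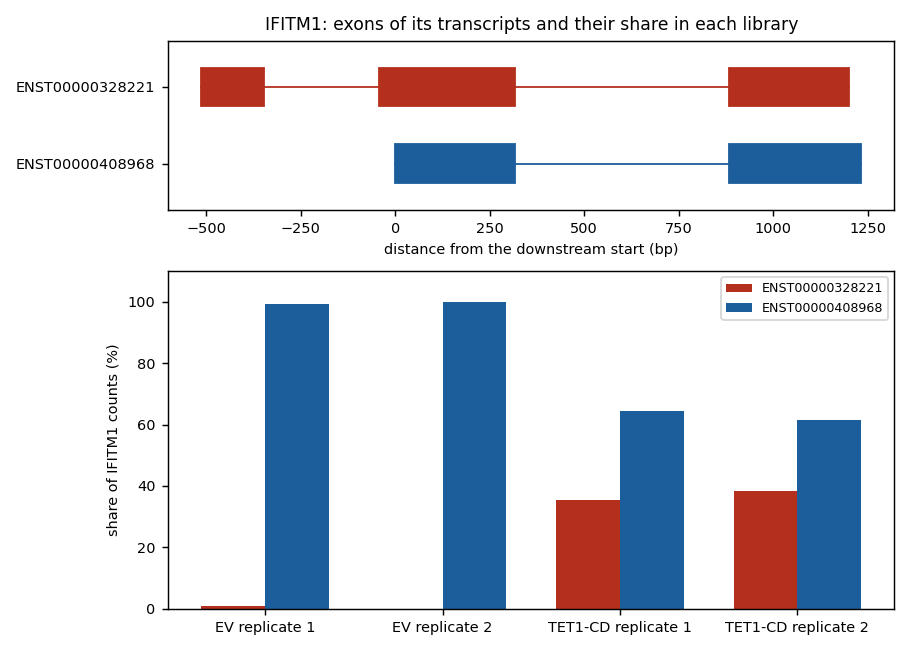
Top, exons of the IFITM1 transcripts as boxes, by distance in bp from the start of ENST00000408968. Bottom, share of IFITM1 counts (%) of each transcript in each library; ENST00000328221 was under 1% in both EV libraries and at 35.5% and 38.4% in the TET1-CD libraries.

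MX1 and MX2 are dynamin-like GTPases that trap viral nucleocapsids, and their genes are neighbours on chromosome 21. MX2 alone was called, and the difference between them was not tested. MX1 had 61.9 and 84.9 CPM in EV and 77.5 and 79.2 in TET1-CD, so that the TET1-CD libraries lay between the EV libraries, with a log2 fold change of 0.10 (SE 0.12). MX2 had 28.3 and 40.7 CPM against 25.8 and 24.1, or -0.46 (SE 0.15), and was not called by limma-voom.

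The ISG15 system attaches a ubiquitin-like protein to newly made proteins. ISG15 itself had 236 and 351 CPM in EV and 225 and 228 in TET1-CD, a log2 fold change of -0.37 (SE 0.14). It was not called, although the groups did not overlap. UBA7, the activating enzyme, had 24.9 and 28.8 CPM against 18.8 and 18.5, or -0.52 (SE 0.10). UBE2L6, the conjugating enzyme, had 66.4 and 96.5 CPM against 42.8 and 50.1, or -0.80 (SE 0.15). HERC5 is the ligase that acts next. It had 43.97 and 50.6 CPM against 33.3 and 33.1, a log2 fold change of -0.51 (SE 0.08). HERC6, its neighbour on chromosome 4, had 142 and 178 CPM against 111 and 114, or -0.51 (SE 0.09). USP18 removes ISG15 from proteins and also restrains the interferon receptor. It had 22.4 and 35.01 CPM against 26.1 and 28.6 and was not called, with -0.06 (SE 0.17) on the log2 scale. The genes for the steps of attachment were thus lower, whereas the protease was not called, and the difference between them was not tested.

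The guanylate-binding proteins are GTPases that attack the vacuoles of intracellular pathogens. None of the 3 members was called by edgeR, DESeq2 or limma-voom at an adjusted p under 0.05, 1 (GBP1) passed at an unadjusted p, and all 3 had positive fold changes with overlapping groups. GBP1 had 67.6 and 89.7 CPM in EV and 98.7 and 88.1 in TET1-CD, a log2 fold change of 0.25 (SE 0.11). GBP2 had 17.6 and 25.5 CPM against 27.4 and 24.6, or 0.27 (SE 0.15). In both genes the EV replicate 1 value was the lowest of the 4. GBP3, the most abundant, had 119.5 and 132 CPM against 139 and 128, or 0.09 (SE 0.07). GBP4, the next gene in the row and no member, was lower by 1.24 on the log2 scale.

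Of the TRIM family members, 3 of 5 were lower by edgeR, beside 9.61% of all genes. DESeq2 called 2 lower, beside 5.85%. TRIM22 had 47.7 and 74.2 CPM in EV and 32.99 and 35.1 in TET1-CD, a log2 fold change of -0.83 (SE 0.16). DESeq2 did not call it (adjusted p = 0.0594), and its EV libraries differed by 0.64 on the log2 scale. TRIM5, which recognizes retroviral capsids, had 43.6 and 48.01 CPM against 34.8 and 34.2, or -0.41 (SE 0.08). TRIM5 and TRIM22 overlap in the deposited annotation. TRIM25 activates the RNA sensor RIG-I and was the most abundant of the family. Its EV libraries were level, at 191 and 192 CPM, against 153 and 159 in TET1-CD, with a log2 fold change of -0.30 (SE 0.05). TRIM14 (129.8 and 139 CPM against 126 and 117) and TRIM21 (36.4 and 45.01 CPM against 36.98 and 38.5) were not called, and the groups overlapped for TRIM21.

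PARP9, PARP10, PARP12 and PARP14 belong to the ADP-ribosyltransferase family, and DTX3L is the ubiquitin ligase that binds PARP9. DTX3L was among the steadiest members, with 200.4 and 200.02 CPM in EV and 162 and 155 in TET1-CD, and a log2 fold change of -0.34 (SE 0.05). PARP9, which overlaps it on the other strand, had 89.6 and 104 CPM against 69.4 and 75.7, or -0.42 (SE 0.08). PARP14, the third gene of that locus on chromosome 3, had 266 and 285 CPM against 199 and 220.1, or -0.39 (SE 0.06). The 3 genes of this locus were thus lower by like amounts. PARP10 had 107 and 141 CPM against 83.9 and 94.6, a log2 fold change of -0.47 (SE 0.11). PARP12 was the exception in the family, with 79.8 and 96.1 CPM against 93.6 and 94.1, overlapping groups and 0.10 (SE 0.08) on the log2 scale. Most of its counts were assigned to a transcript that retains an intron, on average 61.5% in either group. A transcript marked for nonsense-mediated decay held 32.1% in EV and 31.5% in TET1-CD. The PARP12 value is thus mostly not that of transcripts typed as protein-coding.

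SAMD9 and SAMD9L are paired restriction factors of poxviruses on chromosome 7. SAMD9 had 124 and 139 CPM in EV and 94.2 and 102 in TET1-CD, a log2 fold change of -0.42 (SE 0.07). SAMD9L had 51.04 and 63.3 CPM against 34.6 and 34.1, or -0.73 (SE 0.10). The groups overlapped in neither gene, a separation that held downward for 30.2% of all genes.

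Among enzymes that act on RNA or nucleotides, RSAD2 had the largest change. RSAD2 (viperin) makes a chain-terminating nucleotide and was the least abundant tested member at 2.73 FPKM. It had 7.11 and 9.07 CPM in EV and 4.56 and 4.08 in TET1-CD, a log2 fold change of -0.90 (SE 0.17), or -0.69 as a ratio of mean FPKM. CMPK2, a nucleotide kinase whose gene overlaps RSAD2 on the other strand, had 6.42 and 11.8 CPM against 7.69 and 8.41 and -0.16 (SE 0.24) on the log2 scale. Its EV libraries spanned the TET1-CD libraries. EIF2AK2 (PKR) stops translation upon binding double-stranded RNA. It had 288 and 294 CPM against 262 and 246, the smallest change among the called members at -0.20 (SE 0.05). ADAR, which edits adenosine to inosine in double-stranded RNA, had 506 and 535 CPM against 436 and 457, or -0.22 (SE 0.06). Its interferon-inducible p150 form, of 1226 residues, held 57.2% and 65.98% of the EV counts and 58.3% and 55.8% of those from TET1-CD cells, and the p110 form of 931 residues held 36.04% and 28.2% against 33.2% and 36.8%. The makeup of ADAR overlapped between groups. ISG20, an exonuclease, had 22.8 and 34.2 CPM against 21.8 and 24.9 and was not called, at -0.28 (SE 0.16) on the log2 scale.

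BST2 (tetherin) holds budding virions at the cell surface. It was abundant, at 243 FPKM in EV, and had 231 and 266 CPM in EV and 238 and 236 in TET1-CD, with -0.07 (SE 0.07) on the log2 scale and overlapping groups. PLSCR1, a phospholipid scramblase, had 129 and 148 CPM against 108 and 101, a log2 fold change of -0.40 (SE 0.07). LGALS3BP, a secreted glycoprotein, had 439 and 509.5 CPM against 381 and 389, or -0.30 (SE 0.07). LAMP3 is a lysosomal membrane protein. It had 16.7 and 22.5 CPM against 12.6 and 12.4, or -0.64 (SE 0.14). RTP4 was below the filter on low counts, with 1 and 9 EV counts and 6 and 8 TET1-CD counts.

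The remaining members also were mostly lower. APOL1, an apolipoprotein that lyses trypanosomes, had 56.4 and 77.5 CPM in EV and 50.9 and 49.3 in TET1-CD, a log2 fold change of -0.41 (SE 0.12). APOL6 had 72.3 and 86.4 CPM against 59.2 and 60.6, or -0.40 (SE 0.08). SP100 and SP110 are proteins of nuclear bodies. SP100 had 129 and 139.6 CPM against 105 and 96.5, or -0.42 (SE 0.06). SP110 had 36.02 and 39.5 CPM against 26.6 and 26.9, or -0.50 (SE 0.08). In both, the gap between the EV libraries was small, at 0.11 and 0.13 on the log2 scale. EPSTI1 had 35.3 and 45.3 CPM against 23.6 and 22.5, a log2 fold change of -0.80 (SE 0.12). XAF1, a pro-apoptotic protein, had 18.8 and 27.6 CPM against 17.8 and 20.3 and was not called, at -0.27 (SE 0.16) on the log2 scale.

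Levels of the members spanned a wide range and their order was led by IFI27 (909.6 FPKM, EV mean), IFITM3 (502), ISG15 (411), BST2 (243), IFI6 (220.1) and LGALS3BP (216). The median member had 35.9 FPKM in EV, against 9.62 for all genes tested. Above 100 FPKM were 8 members in EV and 7 in TET1-CD. The members were thus well expressed in EV cells, and RSAD2, CMPK2 and RTP4 were the least abundant.

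By position, 30 of the members lay within 200 kb of another and formed 12 clusters. The 28 protein-coding genes tested that flank or lie inside those clusters were mostly not called. Of these, 4 were lower (GBP4, FAS, B4GALNT4 and RBMXL1), beside the 9.61% of all genes, 4 were higher (GIPC2, LPHN2, DDX54 and PARP15), beside the 10.0%, and 20 were not called.

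The upstream part of the pathway was taken from lists of 84 other gene entries, of which 59 were tested, 20 were lower and 7 higher, beside 9.61% and 10.0% of all genes. DESeq2 called 16 lower. The median log2 fold change of those 59 was -0.11. The count of lower genes fell when either TET1-CD library was left out, and so did the share of all genes called lower. Of 22 interferon genes, 21 had at most 10 counts in every library, the highest being 4. The remaining one was IFNE, an interferon of epithelia, with 42 and 25 EV counts and 40 and 31 TET1-CD counts. Interferon mRNA was thus not detectable beyond a few counts at this depth apart from IFNE.

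Of 9 receptor and kinase genes, 1 was lower and 1 higher, or 11.1% each, close to the shares of all genes. They are given as values of the pathway only. IFNAR1, a chain of the type I receptor, had 103 and 107 CPM in EV and 81.9 and 81.5 in TET1-CD, a log2 fold change of -0.36 (SE 0.06, adjusted p = 0.0022) by edgeR. IFNLR1, a chain of the type III receptor, had 1.53 and 1.39 CPM against 3.93 and 3.06, or 1.25 (SE 0.26, adjusted p = 0.0089) by edgeR. Its level was low in all 4 libraries.

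Of 9 transcription factors tested, 5 were lower and STAT3 was higher, beside 9.61% and 10.0% of all genes. DESeq2 called 4 lower and none higher, beside 5.85% and 6.09%. STAT2 had 48.1 and 47.9 CPM in EV and 31.4 and 31.9 in TET1-CD, a log2 fold change of -0.60 (SE 0.07, adjusted p = 0.00037) by edgeR. IRF7 had 78.8 and 98.9 CPM against 56.6 and 59.9, or -0.61 (SE 0.10, adjusted p = 0.0023) by edgeR. IRF1 had 41.9 and 42.6 CPM against 29.97 and 28.9, or -0.52 (SE 0.07, adjusted p = 0.0012) by edgeR. STAT2 and IRF1 were level between the EV libraries, unlike most effector genes. IRF9, the DNA-binding subunit of ISGF3, had a log2 fold change of -0.11 and was not called.

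Of 14 sensors and adaptors tested, 7 were lower and 1, TRAF3, was higher, beside 9.61% and 10.0% of all genes. DESeq2 called 6 lower and none higher, beside 5.85% and 6.09%. TMEM173 (STING), the adaptor of cytosolic DNA sensing, had 36.1 and 39.98 CPM in EV and 23.3 and 21.5 in TET1-CD, a log2 fold change of -0.76 (SE 0.09, adjusted p = 0.00038) by edgeR. TLR3, an endosomal receptor for double-stranded RNA, had 18.97 and 22.8 CPM against 13.3 and 13.3, or -0.64 (SE 0.11, adjusted p = 0.0038) by edgeR. DDX58 (RIG-I) had 198 and 225 CPM against 158 and 171, or -0.36 (SE 0.07, adjusted p = 0.007) by edgeR. MAVS passes the signal of RIG-I on at mitochondria. It had 127 and 112 CPM against 90.5 and 97.6, or -0.35 (SE 0.07, adjusted p = 0.008) by edgeR.

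None of the 10 negative regulators was lower by edgeR, DESeq2 or limma-voom, nor at an unadjusted p under 0.05, and 2 were higher by edgeR. By edgeR, 9.61% of all genes were lower and 10.0% higher. Counts this small in 10 genes are close to those shares and are given as values only. SOCS3 had 55.3 and 56.5 CPM in EV and 75.3 and 66.7 in TET1-CD, a log2 fold change of 0.34 (SE 0.07, adjusted p = 0.0087) by edgeR, and CISH had 0.741 and 0.578 CPM against 1.71 and 1.38, or 1.20 (SE 0.38, adjusted p = 0.0496) by edgeR. CISH was low in all libraries and was not called by DESeq2. Of 16 gene entries of MHC class I presentation, in which TAP2 is listed under 2 gene IDs, 7 were lower and TAP1 and NLRC5 were higher. DESeq2 called 5 lower, and the same pair higher, beside 5.85% and 6.09% of all genes. ERAP2, a peptide-trimming enzyme, had 21.3 and 20.6 CPM against 13.7 and 14.6, or -0.56 (SE 0.10, adjusted p = 0.0034) by edgeR. NLRC5, the activator of MHC class I genes, was higher, with 17.2 and 19.6 CPM against 24.8 and 24.6, or 0.43 (SE 0.10, adjusted p = 0.013) by edgeR. None of 8 reference genes, ACTB and GAPDH among them, was called in either direction by edgeR, DESeq2 or limma-voom, nor at an unadjusted p under 0.05, and their median log2 fold change was -0.02.

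**Figure D5:**
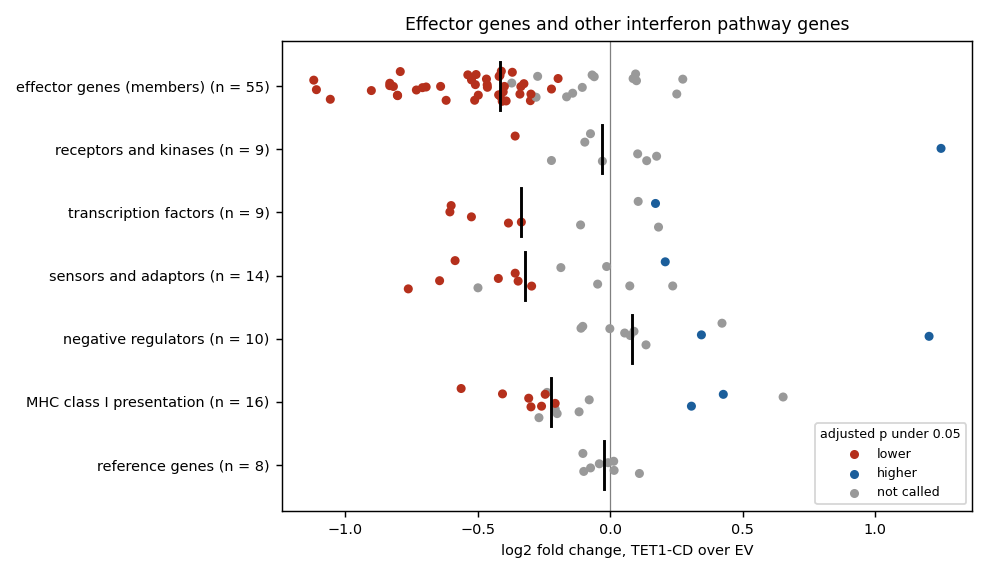
Log2 fold change of TET1-CD over EV (x axis) for each tested gene of the effector set and of other interferon pathway lists, with the list median as a black bar and genes jittered vertically. Red and blue mark genes lower and higher at an adjusted p under 0.05; medians were -0.41 for the effector genes, -0.34 for transcription factors, -0.32 for sensors and 0.08 for negative regulators.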

How the data were processed

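RNAseq of 2 EV and 2 TET1-CD libraries of T24 cells, made from Trizol RNA by poly(A) selection or rRNA removal and sequenced on an Illumina HiSeq, was used. The authors deposited expected counts (estimated fragments per transcript, not whole) and FPKM values for 195700 transcripts on GRCh37. The submitters' processing notes name cutadapt 1.9.1, HISAT2 2.0.1, HTSeq 0.6.1, DESeq2 and hg19; the program that made the estimated counts is not given in the sources used here, nor whether strand was used. Reads shared by near-identical or overlapping genes (the IFITM genes, TRIM5 and TRIM22, CMPK2 and RSAD2, DTX3L and PARP9) may be split wrongly.

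Counts were summed per gene and rounded. Groups were compared by edgeR 4.0.16 (R 4.3.3; TMM, filterByExpr, glmQLFit and glmQLFTest, no block), with Benjamini-Hochberg adjustment over 14573 genes; standard errors (SE) were obtained as the size of the log2 fold change over the root of the F statistic. TMM factors were 0.993 to 1.005. Replicates are numbered as in the labels, which name no separate cultures, so p-values measure only the spread between these libraries. Over all genes tested, libraries with the same number did not deviate together (correlation 0.04). This cannot show that they are unpaired, since a shared harvest could touch few genes.

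The members and lists were chosen with earlier results of these data known. Values per library are given for every called member, the most abundant member of a family and RTP4, which was under the filter; other members may be named. Of other lists, up to 4 genes with the smallest p among those called are named (ligands and leukocyte markers: any above 10 counts). IFNAR1 and IFNLR1 were the only calls of their list, IRF9, IFITM1 transcripts and neighbouring genes were named after their values were seen, for MHC class I genes only 2 are given, and the value of one transcription factor gene is not reported here. Alternatives were DESeq2 1.42.0, RLE, library size only, no filter, at least 10 counts in every library, limma-voom (limma 3.58.1), a replicate block, unadjusted p, a ratio of mean FPKM (pseudocount 0.1) and the omission of each library. The sum of the IFITM genes was added after the data were seen. Promoter windows came from RefSeq (GRCh38.p14), exons and transcript types from GENCODE release 44 on GRCh37.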

Additional observations from a re-analysis of the deposited data

How the results depend on the processing

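The members' median log2 fold change stayed between -0.42 and -0.40 under every alternative that used all 4 libraries, and between -0.55 and -0.32 when 1 library was left out. The members lower numbered 36 with DESeq2, which did not call APOL1, OAS2, TRIM22, IFITM3 and PARP10, 40 with limma-voom, 41 with both other scalings or a minimum of 10 counts, 43 with the replicate block and 44 with no filter, and ranged from 19 to 50 without 1 library. The shares of all genes lower were 5.85% with DESeq2, 9.44% with limma-voom, 9.63% with RLE and 9.11% with library size only. They were 10.1% with a minimum of 10 counts, 11.1% with the replicate block and 7.16% of 25160 genes with no filter. With no filter the adjusted p of IFI6 by edgeR was 2.5e-58, against 0.00039 with the filter. The counts with no filter are therefore not comparable with the others. With the replicate block, ISG15 and IFITM1 were added to the calls and no call was lost. The labels do not say whether libraries of the same number are paired. Members higher were 1 with no filter (GBP1) and 1 at an unadjusted p, and 0 to 5 without 1 library. Members lower by 2-fold ranged from 1 to 7 and other pathway genes lower from 5 to 27 without 1 library. Leaving out 1 library reversed the sign of PARP12 (-0.0419 to 0.231), MX1 (-0.123 to 0.338), BST2 (-0.176 to 0.0352), TRIM21 (-0.262 to 0.0512), XAF1 (-0.537 to 0.0185), CMPK2 (-0.562 to 0.326), ISG20 (-0.557 to 0.0345), USP18 (-0.362 to 0.289) and IFITM1 (-0.552 to 0.0015), given with their lowest and highest log2 fold changes. The library was EV replicate 1 for PARP12 and MX1, EV replicate 2 for the rest, and also TET1-CD replicate 1 for USP18 (0.0035). None of these genes was called in the fit with all 4 libraries. The cause was not tested. With 2 libraries a group, the spread of a single gene is borrowed from all genes. Without a TET1-CD library that spread comes from the EV libraries alone, which differed more from each other (chi-square per gene 6.45) than the TET1-CD libraries did (2.75).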
